A study of Mus musculus with 6 samples.

Results

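The loss of CD27 from splenic NK cells that already carry CD11b was followed by comparing 2 arrays of CD27-CD11b+ NK cells with 2 arrays of CD27+CD11b+ NK cells, 4 of the 6 arrays of the study. The arrays were chosen by their titles, and all 18193 genes with a single-symbol probe set were tested. All 3 subsets came from the spleens of RAG-/- mice, which lack T and B lymphocytes, and were sorted by flow cytometry as NK1.1+ cells on CD27 and CD11b. The remaining 2 arrays hold CD27+CD11b- cells, the earlier subset. Total RNA was hybridised to Affymetrix Mouse 430 2.0 arrays, and levels are log2 values from RMA (robust multi-array averaging, a method that adjusts for background and joins the probes of each probe set into 1 value). Replicates were described as independent. No label ties them to separate animals, so p-values measure only how far these samples spread. The labels give neither sex, age nor strain of the mice.

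One label conflict precedes the results. The sort description of CD27-CD11b+ replicate 1 names CD27 as present and CD11b as absent, against its title. On that array Cd27 was at 6.96 and Itgam, which encodes CD11b, at 9.93, beside 6.47 and 9.45 on the other CD27-CD11b+ array. The CD27+CD11b- arrays held Cd27 at 8.78 and 8.03 and Itgam at 6.37 and 5.88. Counts of calls without that array stand beside the main counts below.

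The 6 arrays also divide in a way that crosses the subsets. The mean of 3 probe sets without a gene symbol was 4.33 to 4.47 on 3 arrays (the off arrays: replicate 1 of CD27+CD11b- and of CD27+CD11b+, and replicate 2 of CD27-CD11b+) and 12.57 to 12.81 on the other 3 (the on arrays). Each side thus holds 1 array of each subset, and the difference between the compared subsets can be read once within each side. The monocyte and macrophage list averaged 7.26 and 7.09 on the compared off arrays and 7.91 and 7.77 on the on arrays, so it moved with the side and not with the subset. The 12 NK cell markers measured averaged 11.16 to 11.92 over the 6 arrays, and none was called between the compared subsets. Of the 12, 11 were higher in CD27-CD11b+ cells (median difference 0.12, beside 0.14 for the 8473 genes above background). The compared arrays did not overlap for 4 that were higher, Prf1, Tbx21, Ncr1 and Klrd1 (13.17 and 13.32 against 13.73 and 13.70). They did not overlap either for Il2rb, which was lower, at 10.96 and 10.28 against 10.27 and 10.25. Among all genes, 39.9% did not overlap. CD27-CD11b+ replicate 1 had 40 genes at least 2-fold below all 5 other arrays, against 0 to 12 on the others.

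CD27 is a costimulatory receptor of the TNF receptor family, and CD11b is the integrin alpha chain encoded by Itgam. Mouse NK cells gain CD11b while they still carry CD27 and then lose CD27. The last subset is known as long-lived, slow to divide, rich in the inhibitory receptor KLRG1 and common in blood and in the red pulp of the spleen, while CD27-bearing cells respond more readily to cytokines. Chemokine and sphingosine-1-phosphate receptors set where such cells go, and a small group of transcription factors, among them T-bet, ZEB2 and BLIMP-1, accompanies the terminal stage.

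The 250 bases before the start site are shown for some of the genes called below, from RefSeq on GRCm38.p6. Cx3cr1 and Kcnj8 rose, and Emb, Ltb and Cxcr3 fell. The E-box CAGGTG, which ZEB2 is known to bind, is in the window of each falling gene shown. The windows of Myb and Il7r, which also fell and are not shown, do not hold it. Whether ZEB2 acts on any of these genes was not tested. Capitals mark a match to any of 6 motifs searched on both strands. In Emb and Ltb the capitals are CAGGTG or its reverse complement. In Cxcr3 the first capitals match the MYB motif TAACNG and the second the E-box. The windows lie at chr9:120068297-120068546 (minus strand) for Cx3cr1, chr6:142571615-142571864 (minus) for Kcnj8, chr13:117220323-117220572 (plus) for Emb, chr17:35194257-35194506 (plus) for Ltb and chrX:101734148-101734397 (minus) for Cxcr3.
Cx3cr1: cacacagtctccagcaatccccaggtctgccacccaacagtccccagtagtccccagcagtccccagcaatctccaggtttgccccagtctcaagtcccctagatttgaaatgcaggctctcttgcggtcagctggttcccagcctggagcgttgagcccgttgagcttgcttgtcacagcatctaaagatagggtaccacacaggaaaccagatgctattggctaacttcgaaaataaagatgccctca
Kcnj8: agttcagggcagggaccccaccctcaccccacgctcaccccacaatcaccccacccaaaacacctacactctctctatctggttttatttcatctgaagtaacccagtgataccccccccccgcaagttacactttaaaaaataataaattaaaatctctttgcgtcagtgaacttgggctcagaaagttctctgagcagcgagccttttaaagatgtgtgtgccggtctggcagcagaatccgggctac
Emb: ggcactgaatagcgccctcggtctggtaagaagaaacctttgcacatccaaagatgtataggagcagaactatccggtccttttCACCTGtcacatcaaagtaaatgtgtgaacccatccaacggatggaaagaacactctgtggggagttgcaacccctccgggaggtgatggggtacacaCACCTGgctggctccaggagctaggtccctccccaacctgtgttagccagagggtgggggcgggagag
Ltb: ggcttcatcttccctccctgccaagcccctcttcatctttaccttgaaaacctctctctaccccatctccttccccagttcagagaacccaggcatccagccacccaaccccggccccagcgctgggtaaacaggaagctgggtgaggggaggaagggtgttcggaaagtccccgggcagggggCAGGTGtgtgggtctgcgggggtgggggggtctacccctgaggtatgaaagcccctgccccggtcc
Cxcr3: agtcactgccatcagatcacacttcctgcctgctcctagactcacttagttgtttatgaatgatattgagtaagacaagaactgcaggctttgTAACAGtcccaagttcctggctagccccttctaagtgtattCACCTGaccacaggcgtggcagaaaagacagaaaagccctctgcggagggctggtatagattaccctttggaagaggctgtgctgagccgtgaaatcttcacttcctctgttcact

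Cx3cr1 and Kcnj8, the genes with the largest rises, hold none of the 6 motifs in this window. Emb and Ltb, which fell, hold the E-box at -166 and -68 and at -66 from the start, and Cxcr3, which also fell, holds it at -116. Windows were found for 41 of the 54 genes called below. Some genes have several, so the 22 windows of genes that fell belong to 19 genes. The 26 windows of genes that rose belong to 22 genes. CAGGTG was present in 7 of 22 windows of genes that fell (31.8%; Emb, Ltb, Cxcr3, Cd160, Hook1, Cmtm7 and Sidt1), in 2 of 26 windows of genes that rose (7.69%; Prdm1 and Zfp748) and in 17.2% of the 18009 windows of array genes. The PRDM1 motif AAGTGAAA, which the BLIMP-1 protein binds, was in 2 windows of genes that fell (9.09%; Plxnc1 and Gpr15), in none of those that rose and in 1.19% of all. TAACNG was in 13.6% of windows of genes that fell, 3.85% of those that rose and 17.5% of all. The T-box motif AGGTGTGA, which can overlap the E-box, was in neither group and in 0.916% of all windows. GAAANNGAA, the interferon-stimulated response element, was in 13.6%, 7.69% and 6.32% of the windows of falling, rising and all genes, and the Krueppel-like factor motif CCACACCC in 4.55%, 3.85% and 3.54%. These are counts of letters and were not tested.

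Between CD27+CD11b+ and CD27-CD11b+ cells, 54 of 18193 genes passed an adjusted p of 0.05 (0.297%; limma, Benjamini-Hochberg adjustment over all genes), and the same test is meant wherever a gene is said to rise or fall. Of these, 31 were higher (0.17%) and 23 lower (0.126%) in CD27-CD11b+ cells. The genes that rose were led by the homing receptor Cx3cr1, the potassium channel gene Kcnj8, Gpx8 and Smarcd3. Those that fell were led by Emb, the transcription factor gene Myb, the lymphotoxin gene Ltb and Thy1. In these bulk samples, fewer cells that express a gene and less RNA per cell cannot be told apart. Among called genes, 19 had another probe set above background in at least 1 compared subset, always of the same sign. Probe sets below background in both subsets were left out of that count, and the share over all genes was not counted. With the mean of all probe sets, Acpp differed by only -0.39 and Arhgap31 by 0.36. The 4 arrays did not overlap for 7267 genes (39.9%), so non-overlap of 2 against 2 arrays alone says little.

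**Figure D1:**
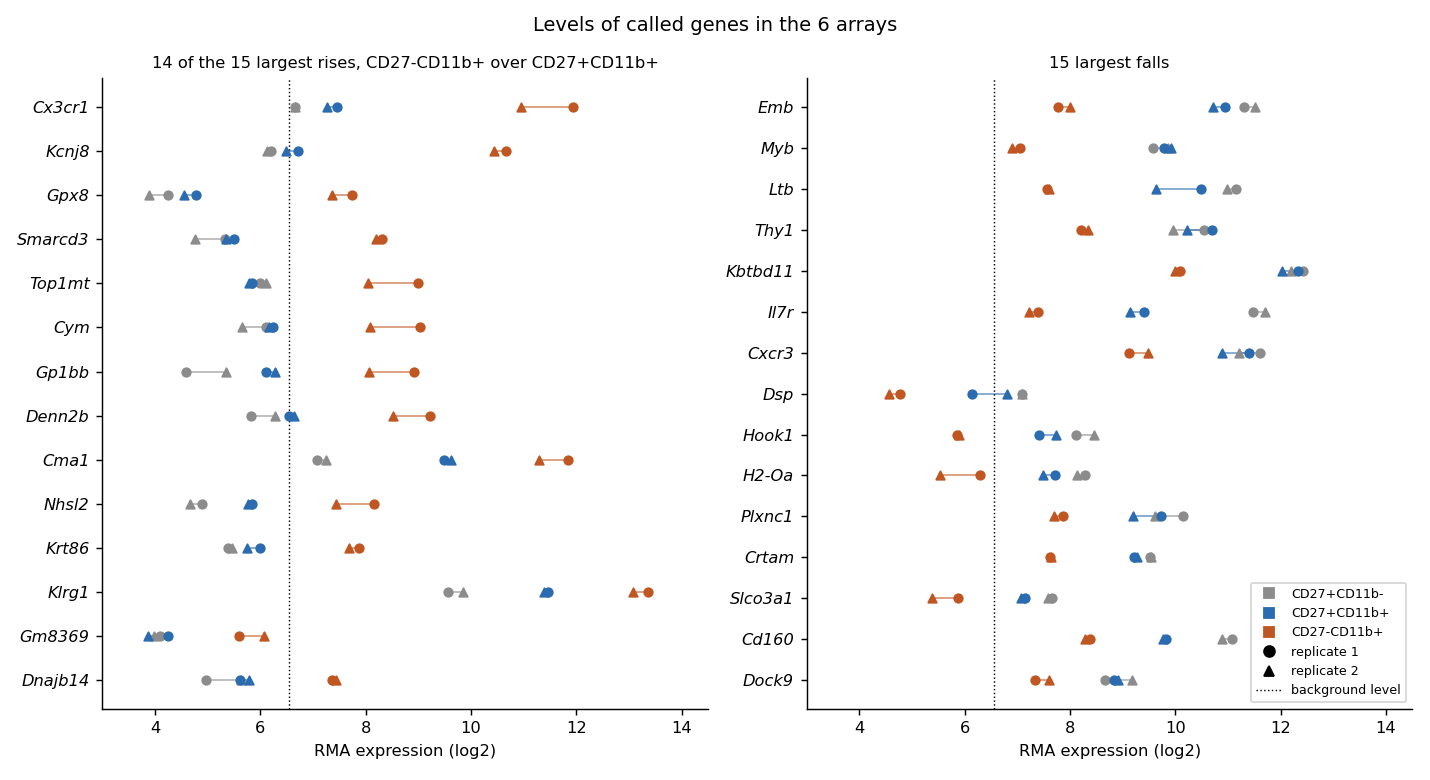
Level (RMA, log2) of 14 of the 15 genes with the largest rises and the 15 with the largest falls, on each of the 6 arrays. Circles are replicate 1, triangles replicate 2, and the dotted line is the background level of 6.55. The 29 genes were chosen by their difference between the orange CD27-CD11b+ and the blue CD27+CD11b+ arrays. That these arrays separate in all 29 follows from that choice.

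Fewer genes were called when 1 compared array was left out. Such a fit leaves 1 array in that subset, so its spread comes from the other subsets alone. The fall in calls therefore does not show that they depended on the array left out. Without CD27+CD11b+ replicate 1 or 2, 13 and 11 genes were called, and without CD27-CD11b+ replicate 1 or 2, 6 and 25. With the array division as a block, 296 genes were called (1.63%; 163 higher and 133 lower), among them all 54. That division was read from these data. Kcnj8, Gpx8, Emb and Myb were called under all 12 alternatives run, and each of the other 50 lost its call under at least 1.

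**Figure D2:**
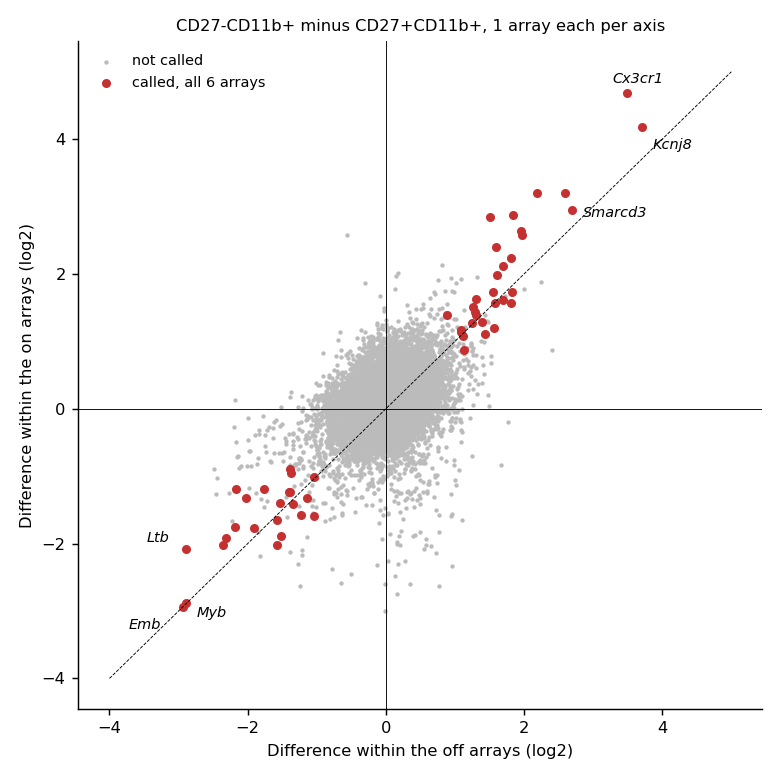
Difference between CD27-CD11b+ and CD27+CD11b+ cells (log2) within the off arrays (x axis) and within the on arrays (y axis), 1 array per subset on each axis. Red points are the 54 called genes and grey points the others; the calls rest on the mean of both plotted differences, so their like sign on both axes follows from that choice. The dashed line marks equal differences.

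Homing receptors gave the largest rise and 2 falls. Cx3cr1 encodes the receptor for fractalkine, a chemokine displayed on endothelium. It was at 7.46 and 7.26 on the CD27+CD11b+ arrays and at 11.94 and 10.95 on the CD27-CD11b+ arrays. The groups lay more than 3 log2 units apart, and the CD27+CD11b- arrays were lower still, both at 6.66. Cx3cr1 rose 16.9-fold (log2 difference 4.08 ± 0.29 SE, n = 2 and 2; limma adjusted p = 0.00238). With the mean of all its probe sets the difference was 2.54 (limma adjusted p = 0.0253). S1pr5, a sphingosine-1-phosphate receptor needed for NK cells to leave marrow and lymph nodes, went from 10.69 and 10.61 to 12.18 and 12.27. It rose 2.98-fold, by 1.58 ± 0.17 (limma adjusted p = 0.0161), and by the same 1.58 in both sides of the division. Cmklr1, the receptor for the attractant chemerin, went from 8.14 and 8.35 to 9.73 and 9.44, a rise of 1.34 ± 0.16 (limma adjusted p = 0.0254), or 0.75 and not past the threshold with the mean of all its probe sets.

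Cxcr3, the receptor for interferon-induced CXC chemokines, was at 11.39 and 10.88 in CD27+CD11b+ cells and at 9.12 and 9.48 in CD27-CD11b+ cells. The CD27+CD11b- arrays, at 11.60 and 11.20, overlapped the CD27+CD11b+ range. Cxcr3 fell 3.58-fold (by 1.84 ± 0.23; limma adjusted p = 0.0276). Ccr2, which answers monocyte chemoattractant chemokines, was at 10.95 and 11.10 against 10.09 and 9.91, and fell 2.04-fold (limma adjusted p = 0.0489). Of 16 homing receptors measured, 3 rose, 2 fell and 11 did not pass, beside 31 that rose and 23 that fell among all 18193 genes. Their median difference was 0.05, beside 0.02 over all genes and 0.14 over those above background. Gpr183, an oxysterol receptor that guides cells within lymphoid tissue, was at 7.33 and 8.30 against 6.48 and 5.48 and did not pass, but did with the division as a block (adjusted p 0.205 and 0.00146). S1pr1, at 7.93 and 7.35 against 7.55 and 7.51, and the selectin ligand gene Selplg, at 12.70 and 12.59 against 13.00 and 12.79, did not pass.

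Among transcription factor genes, 2 of the effector list rose and 2 of the progenitor list fell. Among all 18193 genes, 31 rose and 23 fell. Zeb2, a zinc finger repressor, was at 10.05 and 10.21 against 11.41 and 11.61, and rose 2.61-fold (1.38 ± 0.15; limma adjusted p = 0.0165). Its 4 other probe sets above background differed by 1.19 to 1.82. Prdm1, which encodes the repressor BLIMP-1, was at 7.95 and 8.05 against 9.69 and 9.25, and rose 2.77-fold (1.47 ± 0.18; limma adjusted p = 0.0254). For both genes the CD27+CD11b- arrays were the lowest of the 6, at 9.25 and 9.17 for Zeb2 and at 7.18 and 7.07 for Prdm1. The other 24 of the 26 effector factors measured did not pass. Among these, Tbx21, which encodes T-bet, was at 11.16 and 11.10 against 11.73 and 11.70 (0.58 ± 0.17, limma adjusted p = 0.25), and Eomes differed by 0.03 ± 0.17. Klf2, a factor that keeps lymphocytes in circulation, was at 11.74 and 12.35 against 13.13 and 12.54 (0.79; adjusted p 0.415, and 0.042 with the block).

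Myb, the progenitor factor c-Myb, was at 9.78 and 9.92 in CD27+CD11b+ cells and at 7.04 and 6.89 in CD27-CD11b+ cells. The CD27+CD11b- arrays were level with the former, at 9.58 and 9.85. Myb fell 7.38-fold (by 2.88 ± 0.16; limma adjusted p = 0.000759). Its probe set carries the suffix that warns of possible cross-hybridisation, and the other Myb probe set above background differed by -3.21. Aff3, a transcription elongation factor of lymphoid progenitors, was at 9.32 and 9.40 against 7.99 and 7.97, and fell by 1.38 ± 0.14 (limma adjusted p = 0.0125). The other 13 of 15 progenitor and memory factors did not pass. Bach2, a repressor of effector genes, was at 9.71 and 10.09 against 9.73 and 9.61, and Lef1 at 8.62 and 8.57 against 8.46 and 8.80.

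**Figure D3:**
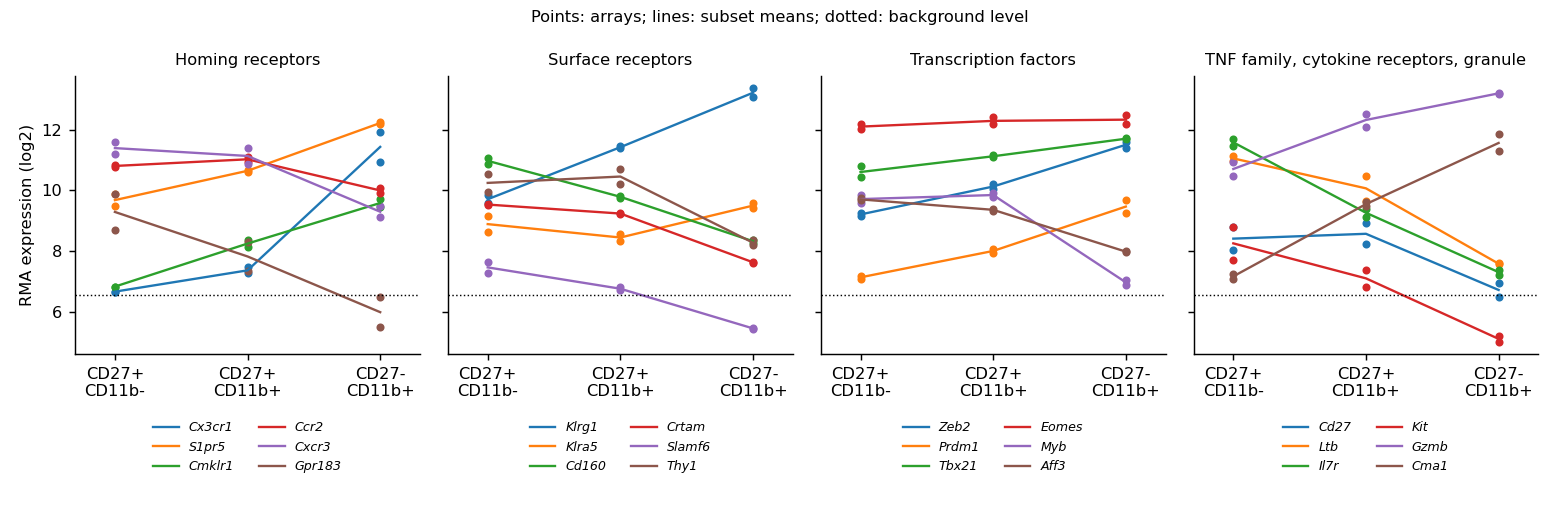
Level (RMA, log2) of 24 genes in the 3 subsets, in 4 panels by role; points are arrays, lines join subset means and the dotted line is the background level. Cx3cr1 is highest and Myb lowest in CD27-CD11b+ cells, by 4.08 and -2.88 against CD27+CD11b+ cells, and Klrg1 and Cma1 by 1.80 and 2.02.

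Among surface receptors of NK cells, 1 of 31 measured rose and 3 fell, beside 31 that rose and 23 that fell among all 18193 genes. Klrg1, an inhibitory receptor for cadherins, was at 11.47 and 11.39 against 13.37 and 13.08, and rose 3.48-fold (1.80 ± 0.17; limma adjusted p = 0.0108). Cd160, a glycolipid-anchored receptor, was at 9.81 and 9.77 against 8.37 and 8.28, and fell 2.77-fold (limma adjusted p = 0.0125). With the mean of all its probe sets the difference was -1.06 and did not pass. Crtam, an adhesion receptor that binds a nectin-like ligand, was at 9.21 and 9.26 against 7.61 and 7.64, and fell 3.06-fold (by 1.61 ± 0.14; limma adjusted p = 0.00537). Its replicates lay close together in each subset, and the groups did not overlap. Slamf6, a self-binding receptor, was at 6.81 and 6.70 against 5.46 and 5.42, the latter below background, so it fell at least 1.15-fold (limma adjusted p = 0.0319).

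With the block, Ly49-family member Klra5 (8.33 and 8.56 against 9.42 and 9.58; adjusted p 0.114 without and 0.0416 with it) and the inhibitory Ctla4 (6.23 and 7.16 against 5.04 and 4.84; 0.168 and 0.0128) passed too. The activating receptor genes Ncr1 (10.71 and 10.00 against 10.95 and 10.90) and Klrk1 (11.38 and 11.06 against 11.45 and 11.24) did not pass. Thy1, a glycolipid-anchored protein of T cells and some NK cells, was at 10.70 and 10.22 against 8.20 and 8.35, and fell 4.56-fold (by 2.19 ± 0.24; limma adjusted p = 0.0162). It stands in the T cell list, of which 1 of 12 fell, beside 23 of all 18193 genes. With the block 3 of the 12 were lower, Thy1, Cd28 and Cd3d, beside 133 of all 18193 genes. The list averaged 6.69 and 6.40 on the CD27+CD11b+ arrays and 5.92 and 6.0 on the CD27-CD11b+ arrays. Its defining members Cd3e (6.20 and 6.36 against 6.44 and 6.38), Cd4 and Cd8a were below the background level of 6.55 on all 6 arrays, while Cd3d was at 7.64 and 6.43 against 5.55 and 5.52 (adjusted p 0.222 without the block and 0.0389 with it). Cd28, the costimulatory receptor of T cells, was at 10.06 and 10.88 against 8.57 and 8.78 (adjusted p 0.0598 without the block and 0.0115 with it), and Cd3g, which overlapped, at 7.41 and 5.38 against 4.60 and 5.74. Whether other cells had a part in the fall of Thy1 was not tested.

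In the TNF family, Cd27 itself was the sorting marker. Its transcript was at 8.92 and 8.21 in CD27+CD11b+ cells and at 6.96 and 6.47 in CD27-CD11b+ cells, without overlap. The difference of -1.86 ± 0.32 did not pass (limma adjusted p = 0.0772). It passed in the fit of the 4 compared arrays alone and with either block (adjusted p 0.038, 0.0131 with the replicate number and 0.0228 with the division). Itgam, the other sorting marker, was at 8.69 and 8.01 against 9.93 and 9.45 (1.34 ± 0.28, limma adjusted p = 0.133; 0.0286 with the replicate number and 0.0475 with the division as a block). Ltb, which encodes lymphotoxin beta, the membrane anchor of a ligand that organises lymphoid tissue, was at 10.49 and 9.64 against 7.56 and 7.60. It fell 5.60-fold (by 2.49 ± 0.26; limma adjusted p = 0.0128) and was the 1 call among 26 TNF family genes, beside 54 of all 18193 genes. Its partner Lta was below background in both subsets, at 5.05 and 4.91 against 5.07 and 4.71, and its receptor gene Ltbr likewise, at 6.19 and 5.70 against 5.66 and 5.40. Tnfsf14, which encodes the ligand LIGHT (8.28 and 7.97 against 7.13 and 7.38), and the adaptor gene Traf1 (10.38 and 11.29 against 10.13 and 9.73) did not pass, at adjusted p 0.127 and 0.385, and passed with the block, at 0.0312 and 0.0433. Cd70, the ligand of CD27, was at 4.04 and 3.85 against 4.16 and 4.07, below background.

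Of 24 cytokine receptor genes, Il7r fell and no other passed, beside 54 calls among all 18193 genes. Il7r, whose product binds interleukin-7, was at 9.39 and 9.13 against 7.38 and 7.22, while the CD27+CD11b- arrays were at 11.47 and 11.70. It fell 3.90-fold (by 1.96 ± 0.17; limma adjusted p = 0.00537). Il7r also stands in the list of other innate lymphoid cells, where 4 of the 8 measured were higher and 4 lower. With the block, 2 of the 8 were called lower, Il7r and Icos, beside 133 of all 18193 genes. Whether other innate lymphoid cells had a part in the fall of Il7r was not tested. Kit, the stem cell factor receptor, was at 6.82 and 7.37 against 5.19 and 5.0 and did not pass, but did with the block (adjusted p 0.0747 and 0.00505). Receptor chains for the cytokines that sustain or activate NK cells differed less: Il2rb by -0.36 ± 0.23, Il15ra by 0.14 ± 0.17, Il18r1 by 0.17 ± 0.16 and Il12rb1 by -0.42 ± 0.17, none past the threshold. Among 17 secreted cytokines and chemokines none passed. Ifng was at 12.48 and 12.51 against 12.81 and 12.50, and Ccl5 at 14.15 and 14.14 against 14.26 and 14.13. With the block, the chemokine genes Xcl1 (10.66 and 11.15 against 9.97 and 8.67) and Cxcl10 (7.86 and 8.65 against 7.19 and 6.09) were called lower and Ccl9 (5.35 and 5.70 against 7.63 and 6.44) higher, at adjusted p 0.0128, 0.00573 and 0.0205, against 0.195, 0.293 and 0.159 without it.

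Of 29 genes of the cytotoxic granule and death ligands, Cma1 rose, beside 31 of all 18193 genes. It encodes chymase, a serine protease best known from mast cell granules, and was at 9.48 and 9.62 against 11.85 and 11.30. It rose 4.07-fold (2.02 ± 0.20; limma adjusted p = 0.0125), from 7.07 and 7.25 on the CD27+CD11b- arrays. Of 9 mast cell and basophil markers measured, none was called, and 2 were higher and 7 lower in CD27-CD11b+ cells. Cpa3, Fcer1a, Ms4a2 and Mcpt8 were between 3.70 and 4.95 on all 6 arrays, below background. Kit, also in that list, was above background at 6.82 and 7.37 in CD27+CD11b+ cells and below it in CD27-CD11b+ cells. Kit was called lower with the block and not without it (limma adjusted p 0.00505 and 0.0747). Whether mast cells had a part in the rise of Cma1 was not tested. Granzyme B gene Gzmb was at 12.54 and 12.11 against 13.23 and 13.18, the Fas ligand gene Fasl at 11.89 and 12.56 against 13.38 and 12.68, and Serpinb9b, a granzyme inhibitor family member, at 9.04 and 8.46 against 9.88 and 9.89. These 3 did not pass, at adjusted p 0.17, 0.418 and 0.106, and passed with the block, at 0.0492, 0.0349 and 0.0219. So did Gzmm, at 7.72 and 7.02 against 6.27 and 6.47, and Lyst, which governs granule size, at 8.74 and 8.58 against 7.91 and 7.93; both were lower (adjusted p 0.042 and 0.0473, against 0.284 and 0.127). Prf1, which encodes perforin, was at 12.50 and 12.76 against 13.15 and 13.31 and did not pass (0.60 ± 0.16, limma adjusted p = 0.226). Gzma, at 14.10 and 14.29 against 14.41 and 14.22, overlapped between the subsets.

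Kcnj8 encodes the pore subunit of an ATP-sensitive, inwardly rectifying potassium channel. It was at 6.72 and 6.48 in CD27+CD11b+ cells, about the background level, and at 10.66 and 10.43 in CD27-CD11b+ cells. The CD27+CD11b- arrays were at 6.20 and 6.13. Kcnj8 rose 15.4-fold (3.94 ± 0.16; limma adjusted p = 0.00018), by 3.71 on the off side and 4.18 on the on side. It was 1 of 11 potassium channel genes and partners to pass, beside 54 of all 18193 genes. Abcc9, a sulfonylurea receptor that partners this pore, was below background at 5.39 and 5.54 against 5.53 and 5.19. Abcc8, the other such receptor, was also below it at 5.79 and 5.49 against 5.35 and 5.56. Kcnn4, a calcium-activated potassium channel gene, was at 8.83 and 9.06 against 8.08 and 8.11 and was called lower with the block and not without it (adjusted p 0.0422 and 0.127).

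Adhesion genes gave the deepest fall. Emb encodes embigin, an immunoglobulin-superfamily protein that escorts monocarboxylate transporters to the membrane. It was at 10.94 and 10.72 against 7.78 and 8.0, with the CD27+CD11b- arrays at 11.30 and 11.51. Emb fell 7.67-fold (by 2.94 ± 0.17; limma adjusted p = 0.000759), and its 2 other probe sets above background differed by -3.37 and -3.45. Bsg, which encodes the related chaperone basigin, was at 8.66 and 8.01 against 8.61 and 8.23. Dsp, which encodes the desmosome protein desmoplakin, was called lower at 6.13 and 6.79 against 4.78 and 4.56, but both subset means were below background (limma adjusted p = 0.026). The integrin genes Itgal (11.64 and 11.50 against 11.48 and 11.68) and Itgb2 (13.34 and 12.81 against 13.67 and 13.63) did not pass. Itgb3 (6.67 and 7.39 against 6.36 and 5.93) was called lower with the block and not without it (adjusted p 0.0338 and 0.351).

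Several of the largest rises started from a level below background, so their folds are lower bounds against it. Gpx8, a glutathione peroxidase of the endoplasmic reticulum, was at 4.78 and 4.55 against 7.74 and 7.37, at least 2.01-fold higher (limma adjusted p = 0.00232). Smarcd3, a subunit of the SWI/SNF chromatin remodelling complex, was at 5.50 and 5.35 against 8.30 and 8.19, at least 3.25-fold higher (limma adjusted p = 0.00242). Top1mt, the mitochondrial DNA topoisomerase, was at 5.85 and 5.79 against 8.99 and 8.04, at least 3.92-fold higher (limma adjusted p = 0.0126). These genes were also below background in the CD27+CD11b- arrays.

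Cym, which encodes the stomach protease chymosin, was at 6.24 and 6.16 against 9.03 and 8.07, at least 4.01-fold higher (limma adjusted p = 0.028). Gp1bb, a chain of the platelet receptor for von Willebrand factor, was at 6.11 and 6.27 against 8.91 and 8.06, at least 3.83-fold higher (limma adjusted p = 0.0417); with the mean of all its probe sets the difference was 1.22 and not past the threshold. None of the other 7 platelet markers measured was called. Pf4, Ppbp, Gp5, Gp6 and Vwf were below background on all 6 arrays, at 4.03 to 6.12. Itga2b was at 6.42 and 6.69 against 6.79 and 6.95, and Gp9 at 6.64 and 6.34 against 5.95 and 6.10. Whether platelets had a part in the rise of Gp1bb was not tested. Denn2b, a DENN-domain exchange factor for Rab GTPases, was at 6.54 and 6.65 against 9.22 and 8.51 (2.27 ± 0.25, limma adjusted p = 0.0166). Nhsl2 was at 5.84 and 5.76 against 8.15 and 7.43, at least 2.37-fold higher (limma adjusted p = 0.0213). Krt86, a hair keratin gene, was at 5.99 and 5.75 against 7.87 and 7.69, at least 2.35-fold higher (limma adjusted p = 0.00507). Dnajb14, a membrane-bound co-chaperone, was at 5.62 and 5.79 against 7.36 and 7.43, at least 1.80-fold higher (limma adjusted p = 0.0328). Gm8369 (4.25 and 3.87 against 5.60 and 6.07) stayed below background in both subsets although called.

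The 16 smaller rises ranged from 1.0 for Ccdc71l to 1.66 for Cdh22, a cadherin. Besides S1pr5, Prdm1, Zeb2 and Cmklr1, they included the erythroid and platelet factor gene Nfe2 (1.39), which stayed below background in both subset means. They also held the vesicle traffic gene Syt11 (1.34), the kinase gene Cdk14 (1.26) and Qprt (1.14), an enzyme of NAD synthesis. Camk2n1 (1.13) encodes an inhibitor of a calcium-dependent kinase, and Arhgap31 (1.10) a GTPase-activating protein. Parm1 and Zfp748 rose from below background, by at least 1.23-fold and 1.18-fold, and Pheta2 (1.37) and Magef1 (1.27) were below it in both subsets. With the mean of all probe sets of a gene, Cdk14 differed by 0.54 and Arhgap31 by 0.36, neither past the threshold. Arhgap31 kept its call in 2 of the 12 alternatives, the fewest among the called genes. Of 7 erythroid markers measured, none was called, and 5 were higher and 2 lower in CD27-CD11b+ cells. Slc4a1 (6.70 and 5.85 against 6.86 and 8.07) passed with the division as a block (limma adjusted p 0.368 without and 0.0171 with it). Alas2 was at 7.30, 7.91 and 8.36 on the off arrays. On the on arrays it was at 5.77, 5.87 and 6.70. Whether erythroid cells had a part in the rise of Nfe2 was not tested.

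Among the remaining falls, Kbtbd11, a BTB and kelch-domain gene, was at 12.32 and 12.02 against 10.09 and 10.00, and fell 4.35-fold (by 2.12 ± 0.17; limma adjusted p = 0.00405; -1.31 with the mean of all its probe sets). Hook1, which links cargo to microtubules, was at 7.40 and 7.74 against 5.85 and 5.89, at least 2.04-fold lower (limma adjusted p = 0.0161). H2-Oa, a chain of the non-classical molecule that tunes peptide loading of MHC class II, was at 7.71 and 7.48 against 6.29 and 5.54, at least 2.07-fold lower (limma adjusted p = 0.0475). Its class II list held no other call among 10, beside 54 calls among all 18193 genes. H2-Aa, a classical class II chain, moved with the side of the division, at 9.19 and 9.14 on the compared off arrays and 10.85 and 10.72 on the on arrays. Whether cells that carry class II had a part in the fall of H2-Oa was not tested. Plxnc1, a semaphorin receptor gene, was at 9.72 and 9.19 against 7.86 and 7.70 (a fall of 3.20-fold; limma adjusted p = 0.0441). Slco3a1, an organic anion transporter gene, was at 7.14 and 7.06 against 5.87 and 5.38, at least 1.47-fold lower (limma adjusted p = 0.028). Dock9, an exchange factor for Cdc42, was at 8.84 and 8.91 against 7.33 and 7.61 (limma adjusted p = 0.0471). The 8 smaller falls, besides Aff3, Slamf6 and Ccr2, were those of the cell cycle kinase gene Cdk6 (-1.32), the acid phosphatase gene Acpp (at least 1.22-fold, with the CD27-CD11b+ arrays below background at 5.44 and 5.59), Sidt1 (-1.23), the colon homing receptor gene Gpr15 (-1.16, below background in both subsets) and Cmtm7 (-1.13). With the mean of all probe sets, Acpp differed by -0.39 and was not called.

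The genes of the cell cycle list were lower on both CD27-CD11b+ arrays on average, without a call. Cdk6, called lower above, was not in that list. The mean of the 37 measured was 8.24 and 7.25 on the CD27+CD11b+ arrays and 7.0 and 7.15 on the CD27-CD11b+ arrays. The CD27+CD11b+ replicates thus differed more from each other than replicate 2 of that subset did from the CD27-CD11b+ arrays. The median difference was -0.87, with -1.0 on the off side and -0.25 on the on side, beside 0.02, -0.04 and 0.09 over all genes and 0.14 over the 4 arrays for genes above background. It was -0.15 without CD27+CD11b+ replicate 1 and -1.37 without replicate 2. Mki67, the proliferation antigen Ki-67, was at 10.77 and 9.30 against 7.63 and 8.54 (-1.95 ± 0.55, limma adjusted p = 0.244). With the block, Mki67, Ccna2, Ccnb2, Bub1 and Cdc6 were called lower (limma adjusted p 0.00188, 0.0111, 0.0287, 0.0473 and 0.0258). That was 5 of the 37, beside 133 of all 18193 genes. Of the 37 measured, 32 were lower and 5 higher in CD27-CD11b+ cells, beside 8529 lower and 9664 higher among all 18193 genes. Among the 5 higher were the replication helicase genes Mcm2 (0.18 ± 0.15) and Mcm4 (0.31 ± 0.21), neither past the threshold.

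Of 23 genes of the type I interferon response none was called. The median difference was -0.33, with -0.46 on the off side and -0.45 on the on side, beside 0.02, -0.04 and 0.09 over all genes. Ifit1, an inhibitor of viral RNA translation, was at 6.70 and 7.06 against 5.72 and 5.60 (-1.22 ± 0.19, limma adjusted p = 0.0598), and Usp18, a brake on interferon receptor signalling, at 8.53 and 8.54 against 7.68 and 7.45 (-0.97 ± 0.15, limma adjusted p = 0.0606). With the block, which was read from these data, 6 of the 23 were called lower, beside 133 of all 18193 genes. Ifit1, Ifit3, Usp18 and Oasl1 were among the 6. Irf7, at 9.29 and 9.17 against 9.18 and 8.60, and Irf9, at 8.36 and 8.35 against 8.79 and 8.33, did not pass. Lists for oxidative phosphorylation (28 genes), cytosolic ribosomal proteins (20), ribosome biogenesis (29), glycolysis (17), cholesterol synthesis (19), sialyltransferases (19), apoptosis (17), immediate early and heat shock genes (24) and activating receptor signalling (26) held no call. Their medians lay between -0.23 and 0.17.

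Values of the earlier step, from CD27+CD11b- to CD27+CD11b+ cells, are set beside these. Both comparisons use the CD27+CD11b+ arrays, so no overlap between them is read. In that step 22 genes were called (0.121%; 58 with the division and 19 with the replicate number as a block). Klrg1 differed by 1.72 ± 0.17 there and by 1.80 on loss of CD27, and Cma1 by 2.39 ± 0.20 and 2.02. Cmklr1 differed by 1.42 ± 0.16 and 1.34, Cd160 by -1.19 ± 0.15 and -1.47, Il7r by -2.32 ± 0.17 and -1.96, and Acpp by -1.98 ± 0.16 and -1.32. On loss of CD27, Acpp ended below background. Cx3cr1 differed by 0.70 ± 0.29 in the earlier step, Kcnj8 by 0.44 ± 0.16, Emb by -0.58 ± 0.17, Myb by 0.13 ± 0.16 and Cxcr3 by -0.26 ± 0.23, none past the threshold. The difference between the steps passed for 1 gene (0.0055%), Kcnj8, at 3.50 ± 0.28 (limma adjusted p = 0.0314; 0.0569 with the replicate number as a block, which ends the call). For Myb it was -3.02 ± 0.28 (limma adjusted p = 0.0501; 0.0119 with the division as a block) and for Cx3cr1 3.38 (limma adjusted p = 0.363), neither past the threshold.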

How the data were processed

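Total RNA of 3 sorted NK cell subsets, 2 arrays each, was measured on Affymetrix Mouse 430 2.0 arrays. The deposited values are log2 expression; the submitters' processing notes name RMA; the probe annotation can be old. They were used without further normalisation, and array medians were 5.26 to 5.36. Arrays give no read depth, and 2 arrays per subset limit the precision. Of 45037 probe sets that are not controls, 34945 had 1 gene symbol, 932 several and 9160 none; 34741 of the first matched RefSeq. Each of 18193 genes was represented by its brightest probe set (highest mean of the 6 arrays).

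A fit of all 3 subsets was made with limma 3.58.1 in R 4.3.3, with Benjamini-Hochberg adjustment over all genes and calls at an adjusted p under 0.05; the script was tested on simulated data. Errors are the fit's standard errors. The background level, 6.55, is the 95th percentile of 49 genes of other tissues; a fold with 1 subset below it is a lower bound against it. Members and gene lists, and the division of the arrays, were chosen with earlier results of these data known. Named were any called gene (per-array values for the 15 largest in each direction), the sorting markers and called or well-known list members. The values of 1 of these are not reported here. Promoter windows are RefSeq's. Alternatives were a fit of 4 arrays, 2 blocks, each compared array left out, the mean of all probe sets, only genes above background, a pseudocount of 32, median centring and a prior variance that follows the mean.

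Same-numbered CD27+CD11b+ and CD27-CD11b+ arrays deviated from their subset means with a correlation of -0.12 across genes, so the numbers were not taken to pair them. For CD27+CD11b- and CD27+CD11b+ arrays, whose numbers also mark the side of the division, it was 0.72.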

Additional observations from a re-analysis of the deposited data

Results flagged for a closer look

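Between the sides of the array division, 3 genes differed at least 2-fold in opposite directions, each side being 1 array per subset, and the difference between the sides was not tested. Dennd4a differed by 1.10 on the off side and -1.65 on the on side, Macroh2a3 by 1.01 and -1.06, and Vmn2r84 by 1.01 and -1.14. For comparison, 45 genes were at least 2-fold higher and 52 at least 2-fold lower on both sides.

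The median difference of 2 lists had opposite signs on the sides, also untested. It was -0.244 and 0.142 for the 26 TNF family genes and -0.244 and 0.101 for the 10 MHC class II genes, within the off and the on arrays.

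Outside the named genes, 3 probe sets without a gene symbol passed the same model fitted over all probe sets. Probe set 1423420_at was at least 2.59-fold higher in CD27-CD11b+ cells, from 4.29 and 4.50, below background, to 7.81 and 8.04 (difference 3.53, limma adjusted p = 0.00858). Probe set 1446852_at was higher by 2.42 but below background in both subsets, and 1433471_at was lower, with a difference of -1.90 from levels of 10.14 and 10.22.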

How the results depend on the processing

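None of the 54 calls changed sign under the 12 alternatives, but most of these could not have changed it. The blocks, the fit of 4 arrays, the fit of genes above background and the changed prior variance left each difference as it was. The compared arrays did not overlap for any called gene, so neither a pseudocount nor a left-out array could reverse it. The main counts were 54 called, 31 higher and 23 lower. With the array division as a block they were 296, 163 and 133, and with a pseudocount of 32 they were 11, 5 and 6, the split moving from 57.4% to 45.5% higher. With the mean of all probe sets of a gene, 36 were called, 12 of them lower, and Acpp differed by -0.39 and Arhgap31 by 0.36. In that fit 33 of the 54 kept their call and 21 lost it, among them Cd160, Slamf6, Plxnc1, Hook1, Cdk6 and Sidt1. Leaving out 1 array gave 6 to 25 called, 4 to 15 higher and 2 to 10 lower, with the fewest without CD27-CD11b+ replicate 1, where 6 of the 54 remained. Fits with fewer arrays have fewer degrees of freedom. The other 5 alternatives gave 47 to 60 calls.

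The replicate block gave 58 calls, 33 higher and 25 lower, with 47 of the 54 among them. Crossing the replicate numbers between the compared subsets is the same as the array division, with 296 calls. Unadjusted p-values under 0.05 numbered 2027 in the main fit. Differences below the background level of 6.55 are not resolved by these arrays. Chosen after seeing the data, both blocks were also fitted to the earlier step and to the difference between the steps. With the array division as a block the earlier step had 58 calls and the step difference 2, against 22 and 1 in the main fit. With the replicate block they had 19 and 0 (limma; 720 genes at an unadjusted p under 0.05 for the step difference), and 18 of the 22 remained. With a pseudocount of 32, which lowers differences of dim genes by construction, Gpx8 differed by 1.94, Smarcd3 by 2.16, Gm8369 by 0.87, Pheta2 by 0.77, Gpr15 by -0.40 and Dsp by -1.07.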
